A study of Mus musculus with 8 samples.

Results

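The tumour necrosis factor (TNF) superfamily was followed in Th17 cells, the CD4 T cells that make interleukin 17. Members were the genes whose only platform symbol began with Tnfrsf or Tnfsf, together with Tnf, Lta, Ltb, Ltbr, Fas, Fasl, Cd27, Cd40, Cd40lg and Cd70. This gave 39 of the 19938 genes with a symbol of their own on the array, each read by 1 probe set, and 30 of the 39 were bright enough to enter the test of 11128 genes. The study hybridised total RNA from 8 cultures to Affymetrix mouse gene arrays, in 2 experiments of 2 genotypes with 2 biological replicates each. In the first, cells deficient in SRC-3, a coactivator of nuclear receptors, came from mice labelled SRC-3 (f/f) and their controls from SRC-3 WT mice. The second took cells without RORγt, the nuclear receptor of the Th17 fate, from RORgt (-/-) mice and controls from RORgt WT mice. All 4 groups were labelled Th17 cells. The treatment label of every sample describes naive CD4 T cells activated by antibodies to CD3 and CD28, with the interleukins 1, 6 and 23 added for the Th17 fate. The labels give no strain, age, sex, culture time or Cre driver, and do not say if each replicate was its own mouse. The p-values therefore reflect only how far these samples spread, which may be technical.

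The TNF superfamily pairs ligands, mostly trimers on the cell surface or shed from it, with receptors that have cysteine-rich repeats outside the cell. Some receptors carry a death domain and can start apoptosis, others bind TRAF adaptors and switch on NF-kB, and a few are decoys that bind a ligand without signalling. On activated T cells the TRAF-binding receptors OX40, 4-1BB, GITR, CD27 and CD30 act as costimulators, while T cells themselves release TNF and lymphotoxin.

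Values are log2 signals, on which a step of 1 is a doubling, and a fold change is the deficient mean minus the wild-type mean of the same experiment. The level of a probe set was not compared with that of another. The array medians lay between 7.764 and 7.927, and the median SD of a replicate pair ran from 0.068 to 0.074 for SRC-3 and from 0.044 to 0.046 for RORγt. Il17a fell from 11.63 and 11.27 to 7.52 and 7.16 in the RORγt-deficient cells (limma adjusted p = 4.86e-05). In the SRC-3-deficient cells Il17a gave 9.06 and 9.14 beside 10.39 and 10.02 (-1.10, limma adjusted p = 0.0567). Il17f gave -1.03 there and passed (limma adjusted p = 0.0347). Ncoa3, the gene of SRC-3, gave 11.15 and 10.97 in the SRC-3-deficient cells beside 11.76 and 11.53 (limma adjusted p = 0.0567). Its signal was 0.667 of the wild-type level, so the loss read by this probe set was partial. The wording without SRC-3 stands below for the cells labelled deficient. The RORγt gene itself was not analysed here. Of 5 measured T cell markers, all were above the filter, with a mean signal between 12.76 and 13.00 on every array. None of the 6 myeloid and 4 NK cell markers and 1 of 5 measured B cell markers reached the filter. So did 1 of 2 CD8 T cell markers, the 1 measured gamma delta T cell marker and 3 of 4 regulatory T cell markers. Those 3 were Ikzf2, Ctla4 and Il2ra, whereas Foxp3 stayed below the filter, between 7.55 and 7.81 on every array. None of the tested cell type markers passed the threshold in either comparison. Of the CD8 and regulatory markers, Cd8b1 and Ikzf2 were higher and Ctla4 lower on the deficient arrays of both experiments. Cd8b1 gave 0.42 for SRC-3 (limma adjusted p = 0.133) and 0.18 for RORγt (limma adjusted p = 0.229). Xist, expressed by females, gave 6.37 and 6.08 without RORγt beside 12.55 and 12.76 in the wild type, so sex and genotype cannot be told apart in that comparison. In the SRC-3 experiment Xist was low only in deficient replicate 1 (7.10, beside 13.60, 13.65 and 13.52).

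Without RORγt, 9 of the 30 tested members changed, 3 upward and 6 downward. The median fold change of all 30 was -0.10 on the log2 scale, beside 0 over all genes. Tnfrsf14, Tnfsf10 and Cd27 rose, while Tnfrsf11b, Tnfrsf10b, Tnfrsf8, Lta, Tnfrsf25 and Tnfrsf1a fell. The share of members called was 30%, beside 19.4% of all genes called (limma, Benjamini-Hochberg adjusted p under 0.05), 10% higher and 9.37% lower; whether these shares differ was not tested. In bulk RNA, fewer cells of a type and less RNA per cell cannot be told apart. The genotypes did not overlap for 24 of the 30 members, 9 with the deficient arrays above and 15 below, beside 70% of all genes (35.8% above and 34.2% below). Without SRC-3, 0 of the 30 passed by limma, beside 0.225% of all genes called (0.189% higher and 0.0359% lower). An unadjusted limma p under 0.05 was found for 9 of the 30, beside 1394 of all 11128 genes. There 12 members had groups that did not overlap, 10 higher and 2 lower in the deficient cells, beside 37.2% of all genes (23% and 14.3%). The median member stood at 0.05, beside 0.02 over all genes.

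**Figure D1:**
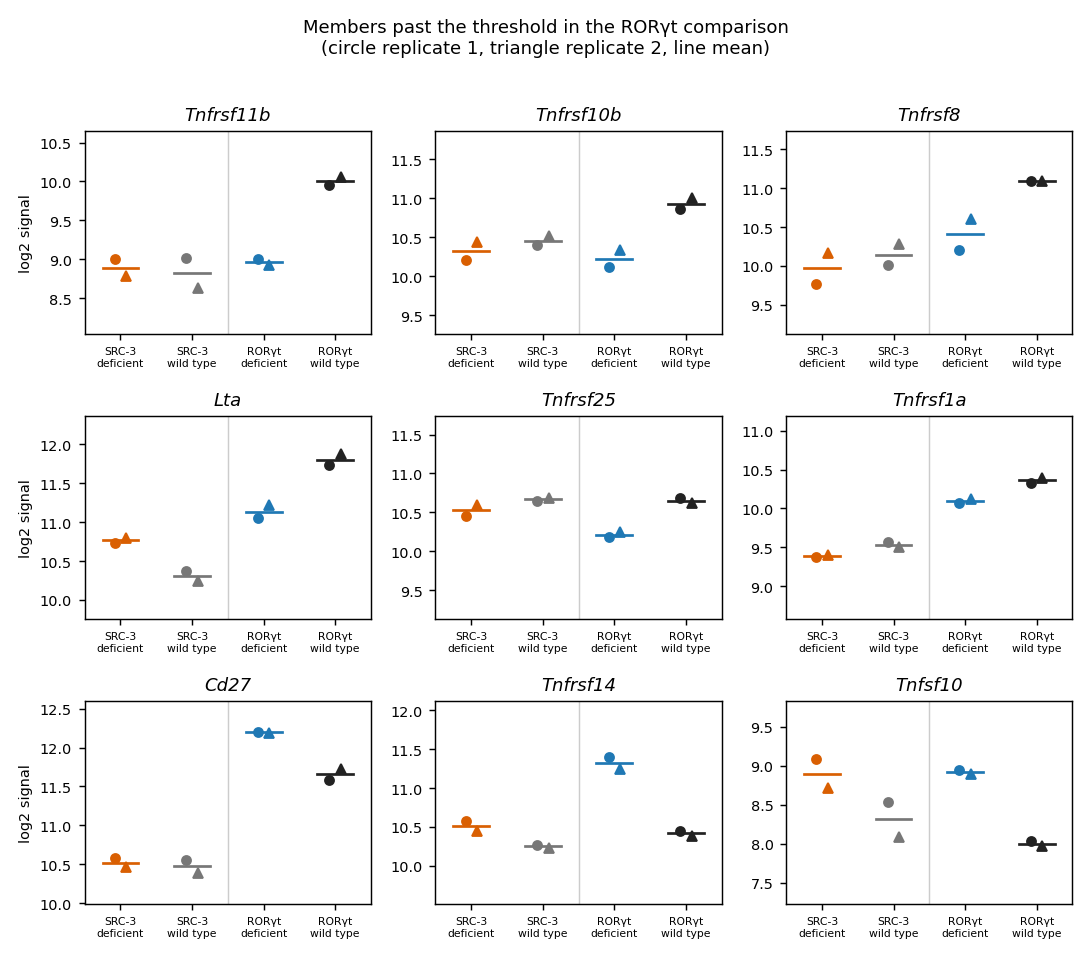
Log2 signal of the 9 members past the threshold in the RORγt comparison, by group; each point is 1 array (circle replicate 1, triangle replicate 2) and each line the mean of 2 arrays, on axes of equal height. The deficient and wild-type arrays of the RORγt experiment do not overlap in any panel, as for 70% of all genes, and the panels were chosen by this comparison. The means differ by 0.91 upward for Tnfrsf14 and 1.04 downward for Tnfrsf11b.

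Among the ligands, 11 of 15 were tested. Lta, Tnf and Ltb are neighbours in the genome, with Lta encoding lymphotoxin alpha, a secreted ligand of the TNF receptors, Tnf the founding cytokine, and Ltb the membrane chain that holds lymphotoxin at the cell surface. Without RORγt, Lta and Tnf had lower values and Ltb had higher ones, a contrast within the locus that was not tested. To show the locus, the 250 bases before each start site are given from RefSeq, assembly GRCm38.p6, on the strand of the gene, with the TATAAA of Lta and Tnf and the NF-kB consensus match of Ltb (on the opposite strand) in capitals.
Lta (chr17:35205352-35205601, minus strand): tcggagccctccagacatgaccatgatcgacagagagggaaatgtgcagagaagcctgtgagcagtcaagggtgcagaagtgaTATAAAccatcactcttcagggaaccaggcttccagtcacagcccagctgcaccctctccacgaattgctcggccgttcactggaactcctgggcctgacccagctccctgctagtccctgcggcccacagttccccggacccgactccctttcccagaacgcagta
Tnf (chr17:35202008-35202257, minus strand): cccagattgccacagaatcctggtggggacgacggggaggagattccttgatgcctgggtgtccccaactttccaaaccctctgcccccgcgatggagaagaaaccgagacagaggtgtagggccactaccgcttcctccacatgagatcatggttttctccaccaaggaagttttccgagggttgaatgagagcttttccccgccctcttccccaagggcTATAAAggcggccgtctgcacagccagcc
Ltb (chr17:35194257-35194506, plus strand): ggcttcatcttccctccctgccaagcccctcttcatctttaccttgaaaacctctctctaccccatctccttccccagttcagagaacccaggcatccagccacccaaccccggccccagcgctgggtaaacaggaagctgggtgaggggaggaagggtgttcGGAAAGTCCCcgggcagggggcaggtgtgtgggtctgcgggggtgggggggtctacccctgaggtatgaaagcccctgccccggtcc

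Lta read 11.05 and 11.22 without RORγt and 11.73 and 11.87 in the wild type. All deficient values were lower, and Lta fell to 0.631 of the wild-type level (log2 fold change -0.66, SE 0.08, n = 2 per group, limma adjusted p = 0.00342). In the SRC-3 experiment Lta stood on the other side, at 10.73 and 10.80 without SRC-3 and 10.37 and 10.25 in the wild type. The groups did not overlap there, but the difference of 0.45 (SE 0.08) missed the threshold (limma adjusted p = 0.0864). The 2 comparisons differed from each other for Lta by -1.11 (SE 0.12, limma adjusted p = 0.00987). Such a difference was called for 3 members, 1 positive and 2 negative, beside 1.67% of all genes (0.746% and 0.926%).

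Tnf gave 11.60 and 12.02 without RORγt and 12.46 and 12.40 in the wild type. Both deficient arrays were lower, but the fold change of -0.62 (SE 0.23) missed the threshold (limma adjusted p = 0.104). In the SRC-3 experiment the genotypes overlapped, at 12.02 and 11.57 in deficient and 12.10 and 11.47 in wild-type cells. There the arrays numbered 1 were high and those numbered 2 low in both genotypes, and the fold change was 0.01 (95% confidence interval -0.53 to 0.55). Ltb was slightly higher without either protein, at 12.10 and 12.18 beside 11.99 and 11.85 for RORγt, and 11.18 and 11.09 beside 10.95 and 10.91 for SRC-3. Neither difference passed, at 0.22 (limma adjusted p = 0.0639) and 0.21 (limma adjusted p = 0.296).

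**Figure D2:**
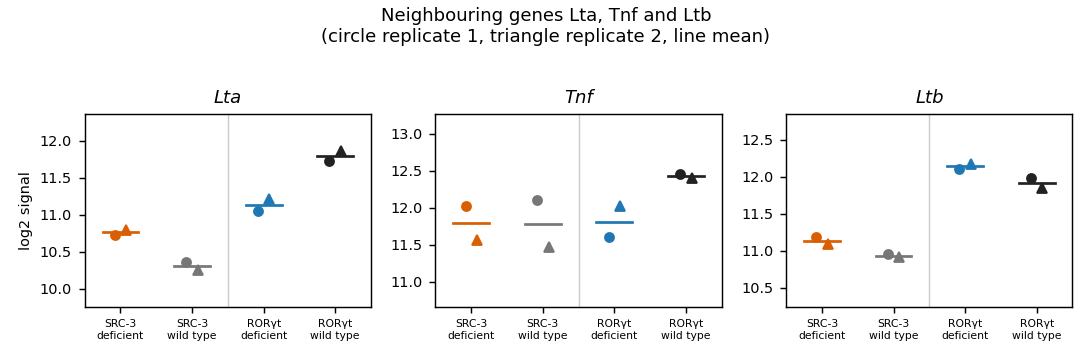
Log2 signal of the neighbouring genes Lta, Tnf and Ltb on each array (circle replicate 1, triangle replicate 2), with lines at the mean of 2 arrays, on axes of equal height. Lta is lower without RORγt (-0.66) and higher without SRC-3 (0.45), Tnf overlaps between the SRC-3 genotypes, and Ltb is higher by 0.22 and 0.21.

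Tnfsf10 encodes TRAIL, an apoptosis-inducing ligand that interferons are known to raise. It gave 8.95 and 8.90 without RORγt and 8.03 and 7.97 in the wild type, so the groups lay far apart. It rose 1.90-fold (log2 fold change 0.93, SE 0.16, limma adjusted p = 0.00902). Without SRC-3 the values were 9.09 and 8.71 beside 8.54 and 8.09, all deficient values being higher, but the difference of 0.59 (SE 0.16) did not pass (limma adjusted p = 0.203).

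Among the ligands of the costimulatory receptors, the values of Tnfsf14 and Tnfsf8 were lower without RORγt, Tnfsf9 and Tnfsf4 overlapped with the wild type, and Cd70, the CD27 ligand, was higher but below the filter (6.77 and 6.83 beside 6.40 and 6.59). Tnfsf14 encodes LIGHT, the T cell ligand of HVEM and of the lymphotoxin beta receptor. It gave 9.21 and 9.46 beside 9.79 and 9.98 and narrowly missed the threshold (-0.55, SE 0.16, limma adjusted p = 0.054). Tnfsf8, the CD30 ligand, gave 11.99 and 12.20 beside 12.47 and 12.49 (-0.39, SE 0.12, limma adjusted p = 0.0589). Cd40lg, the helper ligand that engages CD40 on B cells and dendritic cells and the only X-linked member, gave 10.55 and 10.78 beside 11.17 and 11.23 (-0.54, SE 0.24, limma adjusted p = 0.152). In these 3 genes every deficient array was below every wild-type array.

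In Tnfsf11, the gene of the osteoclast factor RANKL that Th17 cells are known to make, the RORγt-deficient values of 10.49 and 10.72 lay just below 10.76 and 10.75 (-0.15, 95% confidence interval -0.60 to 0.29). Tnfsf9, the 4-1BB ligand, overlapped at 9.66 and 10.07 beside 10.02 and 9.75 (-0.02, 95% confidence interval -0.37 to 0.33). Of the remaining tested ligands, Tnfsf13b, the B cell survival factor BAFF, gave 0.29 (limma adjusted p = 0.0529) and Tnfsf4, the OX40 ligand, -0.01. The RORγt-deficient values of Tnfsf13b, 7.46 and 7.35, and the wild-type values, 7.02 and 7.21, all lay below the filter level of 7.85. Tnfsf13b was tested because SRC-3 arrays reached that level.

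Tnfsf13b was higher on both SRC-3-deficient arrays than in their wild type, at 8.04 and 7.97 beside 7.76 and 7.90 (0.17, limma adjusted p = 0.465). Cd70, below the filter, did not overlap either (0.10), whereas Tnfsf4 and the 5 ligands that follow did. Cd40lg gave 10.83 and 10.19 in deficient and 10.88 and 10.30 in wild-type cells (-0.08, SE 0.24). Tnfsf14 gave 9.20 and 8.83 beside 9.09 and 8.72 (0.11, SE 0.16). In both genes, as in Tnf, the arrays numbered 1 were the higher ones whatever the genotype. Tnfsf8 gave 12.38 and 12.24 beside 12.43 and 12.09 (0.05, SE 0.12). Tnfsf11 gave 10.87 and 10.63 beside 10.78 and 10.15 (0.28, 95% confidence interval -0.16 to 0.73). Tnfsf9 gave 9.18 and 8.96 beside 9.26 and 9.13 (-0.12, SE 0.15). The intervals are not adjusted for the number of genes. Those of Tnf (-0.53 to 0.55) and Tnfsf11 (-0.16 to 0.73) show which changes stay compatible with these arrays, and are not limits of detection.

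Of the 4 tested death domain receptors, 3 fell without RORγt, beside 9.37% of all genes lower. The call of Tnfrsf1a was lost without any 1 of the 4 RORγt arrays and that of Tnfrsf25 without 2 of them. Tnfrsf10b, the receptor of TRAIL, gave 10.12 and 10.33 without RORγt beside 10.86 and 11.00. It fell to 0.613 of the wild-type level (-0.70, SE 0.10, limma adjusted p = 0.00567), while its ligand gene Tnfsf10 rose. Tnfrsf25 encodes DR3, the receptor through which TL1A costimulates T cells. It gave 10.18 and 10.25 beside 10.68 and 10.62, and fell to 0.738 (-0.44, SE 0.07, limma adjusted p = 0.00657). Tnfrsf1a, the widely expressed TNF receptor TNFR1, gave 10.07 and 10.12 beside 10.33 and 10.39, a smaller fall to 0.831 (-0.27, SE 0.06, limma adjusted p = 0.0201). In all 3 the groups were apart.

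Fas, which removes activated T cells when it meets Fas ligand, stood the other way, at 9.49 and 9.49 beside 9.28 and 9.24 (0.22, SE 0.08, limma adjusted p = 0.102). Its gain without SRC-3 was of similar size, with 9.93 and 10.13 beside 9.77 and 9.62 (0.33, SE 0.08, limma adjusted p = 0.163). The groups did not overlap in either experiment, and neither difference passed. The SRC-3 values of the other death domain receptors were small and all negative: Tnfrsf10b overlapped, at 10.21 and 10.44 beside 10.40 and 10.51 (-0.13). Tnfrsf25 gave 10.45 and 10.60 beside 10.65 and 10.69 (-0.15). Tnfrsf1a gave 9.38 and 9.40 beside 9.57 and 9.50 (-0.14). The lowest limma adjusted p of these 3 was 0.385.

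Of 11 tested TRAF-binding receptors, Tnfrsf14 and Cd27 rose and Tnfrsf8 fell without RORγt, beside 19.4% of all genes called. Tnfrsf14 encodes HVEM, a receptor of LIGHT that also binds the inhibitory receptor BTLA. It gave 11.40 and 11.25 without RORγt beside 10.45 and 10.39, and rose 1.87-fold (0.91, SE 0.07, limma adjusted p = 0.0008). In the SRC-3 experiment all deficient values were higher too, at 10.57 and 10.45 beside 10.27 and 10.23 (0.27, SE 0.07, limma adjusted p = 0.212). The rise without RORγt was greater than the difference without SRC-3, by 0.64 (SE 0.11, limma adjusted p = 0.0384).

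Cd27 encodes a costimulator that naive and memory T cells carry and late effector cells lose. It gave 12.20 and 12.19 without RORγt and 11.58 and 11.73 in the wild type, a rise of 1.45-fold (0.54, SE 0.08, limma adjusted p = 0.0065). The SRC-3 genotypes overlapped, at 10.58 and 10.46 beside 10.56 and 10.39 (0.05, 95% confidence interval -0.14 to 0.25). Tnfrsf8 encodes CD30, a receptor of activated lymphocytes. It gave 10.21 and 10.60 beside 11.09 and 11.09, and fell to 0.624 without RORγt (-0.68, SE 0.17, limma adjusted p = 0.0288). Without SRC-3 its values of 9.77 and 10.17 overlapped with 10.01 and 10.28 (-0.18, SE 0.17).

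The costimulators OX40, GITR and 4-1BB did not pass in either comparison. Tnfrsf4, the OX40 gene, overlapped in the RORγt experiment at 13.27 and 13.38 beside 13.29 and 13.26 (0.05, 95% confidence interval -0.23 to 0.32). Its SRC-3-deficient values lay just above the wild type, at 12.90 and 12.75 beside 12.75 and 12.37 (0.26, limma adjusted p = 0.414). The nearest values are equal only after rounding. Tnfrsf18, the GITR gene next to Tnfrsf4, was higher on all deficient arrays of both experiments. It gave 13.02 and 13.09 beside 12.83 and 12.86 for RORγt (0.21, limma adjusted p = 0.157) and 12.11 and 12.05 beside 11.98 and 11.69 for SRC-3 (0.25, limma adjusted p = 0.349). Tnfrsf9, the 4-1BB gene, was lower on both RORγt-deficient arrays, at 12.94 and 13.11 beside 13.41 and 13.43 (-0.40, limma adjusted p = 0.225). In the SRC-3 experiment it overlapped, at 12.76 and 12.28 beside 12.95 and 12.36 (-0.13, SE 0.21), again with the arrays numbered 1 high in both genotypes. Tnfrsf1b, the TNF receptor TNFR2 of activated and regulatory T cells, overlapped between the RORγt genotypes, at 10.51 and 10.55 beside 10.52 and 10.46 (0.04). Both SRC-3-deficient arrays were higher, at 10.75 and 10.61 beside 10.52 and 10.53, but the difference did not pass (0.15, limma adjusted p = 0.396). Of the other tested receptors of this kind, Cd40, Tnfrsf12a (Fn14), Tnfrsf13b (TACI) and Tnfrsf13c (the BAFF receptor) gave fold changes between -0.15 and 0.12 for RORγt and between -0.20 and 0.20 for SRC-3, none past the threshold.

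**Figure D3:**
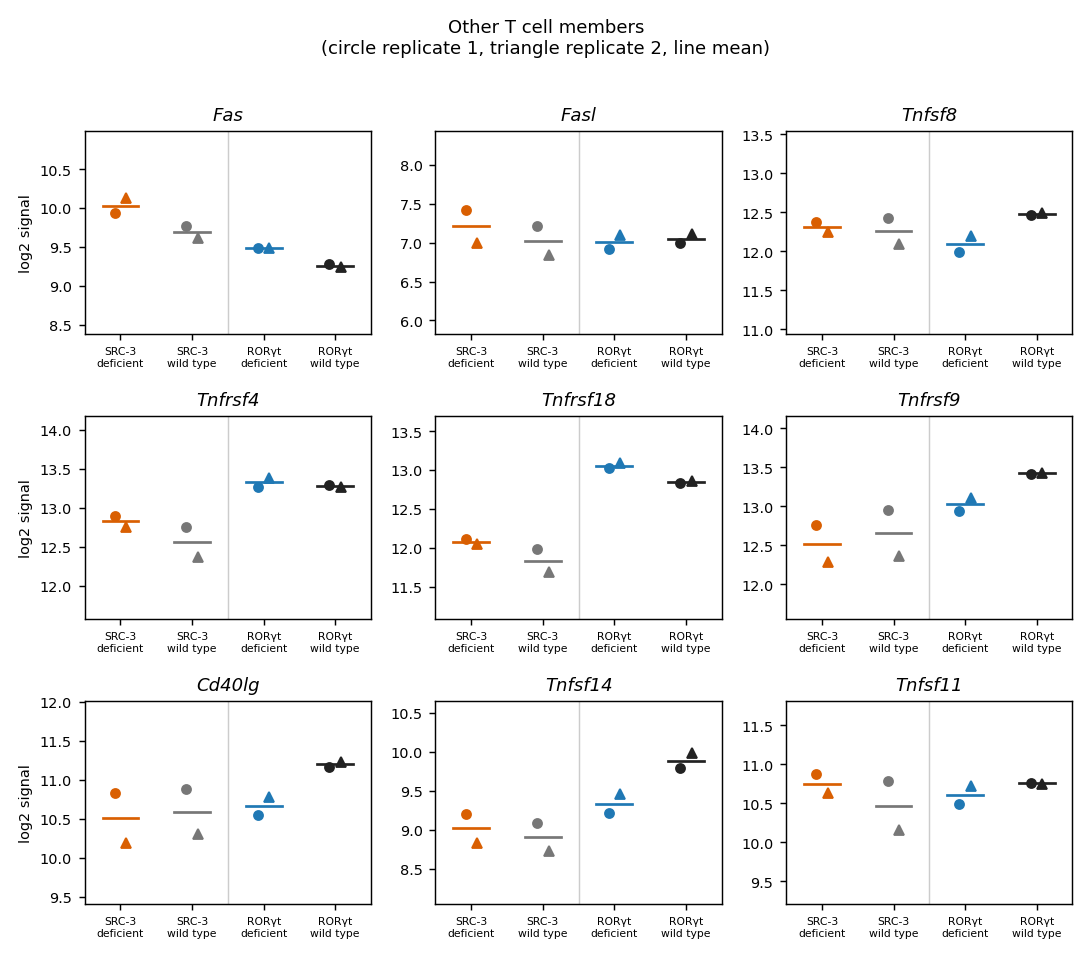
Log2 signal of 9 further ligands and receptors of T cells on each array (circle replicate 1, triangle replicate 2), with lines at the mean of 2 arrays, on axes of equal height. None passed the test in either comparison. In the SRC-3 experiment Cd40lg, Tnfrsf9, Tnfsf14, Tnfsf8, Tnfsf11 and Fasl separate by replicate number rather than by genotype, with Cd40lg at 10.83 and 10.88 against 10.19 and 10.30.

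The decoy group held the largest fall. Tnfrsf11b encodes osteoprotegerin, the secreted decoy that keeps RANKL from its receptor. It gave 9.01 and 8.93 without RORγt beside 9.96 and 10.06. The groups were far apart, and Tnfrsf11b fell to 0.486 of the wild-type level (-1.04, SE 0.13, limma adjusted p = 0.00335), whereas the gene of its target ligand, Tnfsf11, did not pass. The SRC-3 genotypes overlapped, at 9.01 and 8.78 beside 9.02 and 8.63 (0.07, 95% confidence interval -0.24 to 0.38). The difference between the comparisons was -1.11 (SE 0.19, limma adjusted p = 0.0392). Tnfrsf22, Tnfrsf23 and Tnfrsf26 are related genes that lie side by side, and whether their probe sets share signal was not tested. Their RORγt fold changes were -0.42 (limma adjusted p = 0.0601), -0.06 and 0.16, and their SRC-3 fold changes lay between -0.10 and 0.

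**Figure D4:**
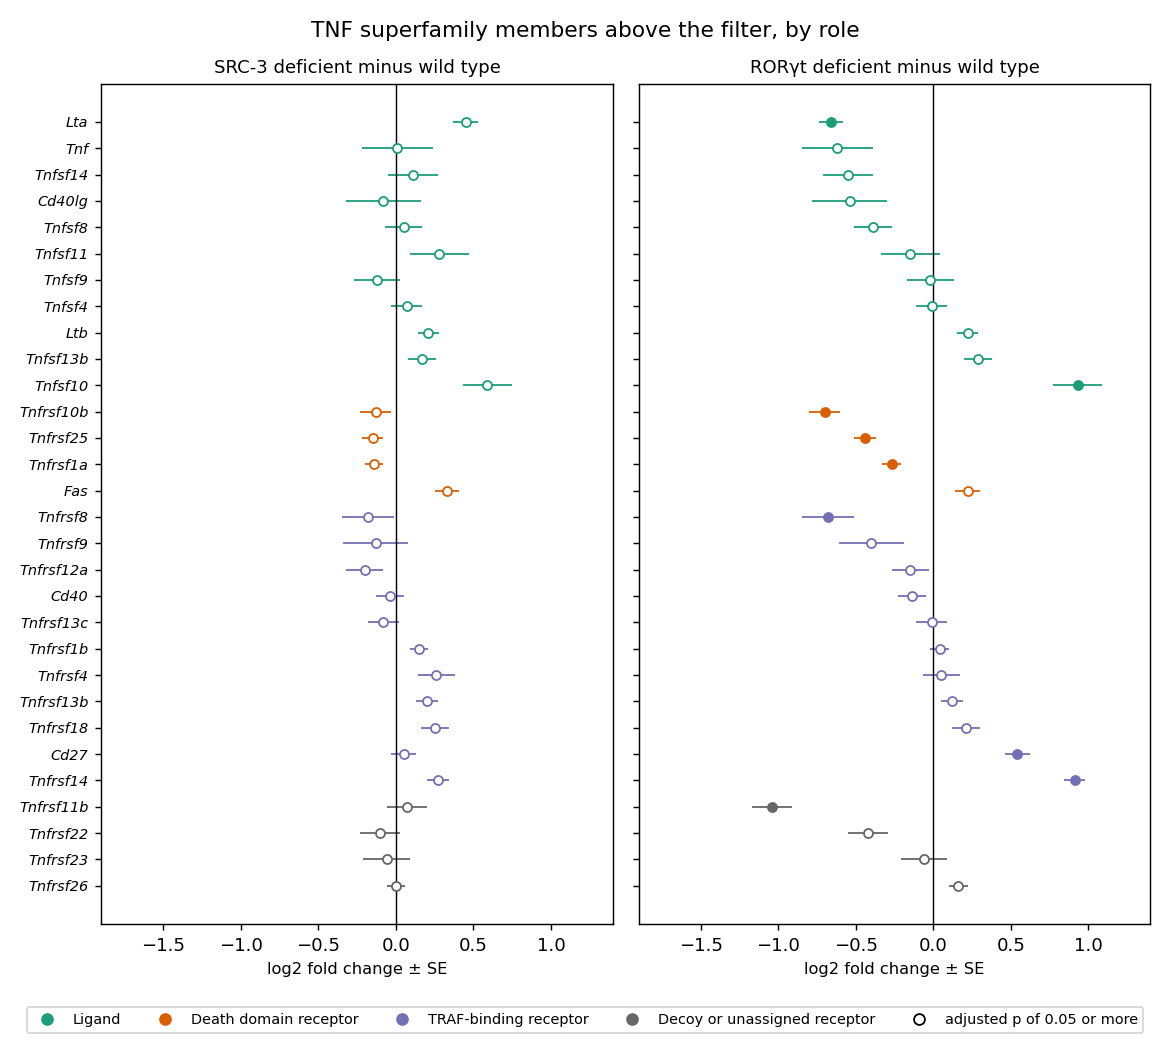
Log2 fold change, deficient minus wild type, with bars of 1 SE, for the 30 tested members, ordered by role and by RORγt fold change; filled points passed an adjusted p of 0.05. No point is filled for SRC-3, and 9 are filled for RORγt, from -1.04 for Tnfrsf11b to 0.93 for Tnfsf10.

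The calls without RORγt differed in how far they rested on single arrays. Those of Lta, Tnfrsf11b and Tnfrsf14 held whichever array was left out. Tnfrsf10b missed the threshold only without wild-type replicate 2 (limma adjusted p = 0.052). Leaving out deficient replicate 1 or wild-type replicate 1 ended the calls of Cd27 (limma adjusted p = 0.0528 and 0.0521) and Tnfrsf25 (0.0607 and 0.0549). Leaving out either of these or wild-type replicate 2 ended those of Tnfsf10 (0.0581 to 0.0698) and Tnfrsf8 (0.13 to 0.173), and that of Tnfrsf1a was lost without any 1 of the 4 arrays (0.0696 to 0.141). With the 4 RORγt arrays fitted alone, 18 members passed (6 higher and 12 lower, beside 30.5% of all genes), Tnf (limma adjusted p = 0.0173), Tnfsf14 (0.0112), Tnfsf8 (0.0143), Cd40lg (0.00648), Tnfrsf9 (0.0101), Fas (0.021) and Tnfrsf18 (0.0305) among them. The differences between comparisons were lost for Lta without RORγt-deficient replicate 1 (limma adjusted p = 0.0532) or either of its wild-type arrays (0.0525 and 0.0617). For Tnfrsf11b they were lost without either deficient array of SRC-3 or any array of RORγt (0.0612 to 0.171), and for Tnfrsf14 without any 1 of the 8 arrays (0.0505 to 0.166).

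The remaining 9 members stayed below the filter, a log2 signal of 7.85 on at least 2 arrays, and were fitted without it: Cd70, Fasl, Ltbr, Tnfrsf11a (RANK), Tnfrsf17 (BCMA), Tnfrsf19, Tnfrsf21, Tnfsf15 (TL1A) and Tnfsf18 (the GITR ligand). Their signals lay between 5.51 and 8.09, where a fold is less certain. Tnfrsf21, the death receptor DR6, gave 7.50 and 7.39 without RORγt and 7.73 and 8.09 in the wild type (-0.46, SE 0.11, limma adjusted p = 0.0348). That call was lost without wild-type replicate 2 (-0.28, limma adjusted p = 0.178) or without either deficient array (0.125 and 0.183). Fasl, the Fas ligand by which cytotoxic cells kill, overlapped in both experiments, at 6.92 and 7.10 beside 6.99 and 7.11 for RORγt (-0.05) and 7.42 and 7.00 beside 7.21 and 6.84 for SRC-3 (0.19). The other 7 did not pass, the closest being Cd70, the CD27 ligand, for RORγt (0.30, limma adjusted p = 0.0558).

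Ligand and receptor genes without RORγt are set side by side here, with no test of any pair. Tnfsf10 rose and its receptor gene Tnfrsf10b fell. Tnfrsf14 rose while its ligand gene Tnfsf14 gave -0.55, and Cd27 rose with 0.30 for Cd70, below the filter. Tnfrsf8 fell with -0.39 for its ligand gene Tnfsf8. Tnfrsf1a fell, as did its ligand gene Lta, while its other ligand gene Tnf gave -0.62 and did not pass. Tnfrsf1b, whose product binds the same 2 ligands, gave 0.04. Tnfrsf25 fell with -0.16 for its ligand gene Tnfsf15, below the filter.

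By position in RefSeq, 20 of the 39 members lie within 200 kb of another member, in 8 groups. Cd27 rose and Tnfrsf1a fell in the group they share with Ltbr, which gave -0.13 and was below the filter. Tnfrsf8 fell beside Tnfrsf1b, which overlapped between genotypes (0.04). Lta fell beside Tnf, which gave -0.62, and Ltb, which gave 0.22.

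Promoter windows of 300 bases, 250 before and 50 after a start site, were taken from RefSeq, assembly GRCm38.p6, for 30 of the 39 members (34 windows). AGGTCA, the core motif of ROR receptors, was in 4 of the 34 windows on either strand (11.8%), beside 16.3% of all 32851 windows. Of the called genes these were Tnfsf10, which rose, and Tnfrsf25, which fell; the called genes Tnfrsf10b and Tnfrsf11b are among the 9 members with no window here. The NF-kB consensus was in 4 windows (11.8%, beside 8.46% of all), those of Ltb, Tnfrsf8, Tnfrsf9 and Tnfrsf25. TATAAA was in 6 (17.6%, beside 13.6%), and no match overlapped 1 of another motif. These matches are letters in a window and not binding sites.

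Below the receptors, 35 of 40 listed adaptors, kinases and NF-kB genes were tested. Without RORγt, 2 rose and 6 fell (22.9%, beside 19.4% of all genes; median 0.02). Traf5, an adaptor of OX40, CD27 and HVEM, rose from 7.69 and 7.54 to 8.39 and 8.28 (0.72, SE 0.09, limma adjusted p = 0.00314). Both RORγt wild-type values of Traf5 lay below the filter level, where a fold is less certain. Rnf31, of the linear ubiquitin ligase, rose by 0.35. Of the genes that fell, Nfkbib (-0.40) and Nfkbia (-0.37) encode inhibitors of NF-kB, whereas Nfkbie, of the same family, overlapped between genotypes (0.03). Tnip1 (-0.24) fell, as did Tnfaip3, the gene of the NF-kB brake A20, from 10.98 and 10.81 to 10.22 and 10.38 (-0.59, SE 0.13, limma adjusted p = 0.0184). Traf4 (-0.35, limma adjusted p = 0.00659) and Tab2 (-0.23, limma adjusted p = 0.0393), an adaptor of the kinase TAK1, also fell. Cyld, another brake on NF-kB, overlapped (0.02). Nfkbie, Cyld and Tab2 were named after their values were seen. The call of Traf5 held without any RORγt array, while the other 7 were lost without at least 1 of them (for Tnfaip3 any 1, limma adjusted p up to 0.125). Without SRC-3 none of the 35 passed by limma, beside 0.225% of all genes. Of the 35, 9 had an unadjusted limma p under 0.05, beside 1394 of all 11128 genes. The median was 0.09, beside 0.02 over all genes.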

How the data were processed

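The 8 arrays hold the deposited log2 signals per probe set that the authors made with Affymetrix Expression Console and RMA, as given in the submitters' processing notes, with no version or genome build given in the sources used here. They were used without a new normalization. Of 35556 probe sets, the 21789 with 1 platform symbol were kept, and a probe set naming Tnfsf12 and Tnfsf13 together was left out. Probe sets entered the test if they reached the median of all values (7.85) on at least 2 arrays, and the brightest stood for its gene. Group means of all 8 arrays were fitted with limma 3.58.1 in R 4.3.3 (4 residual and 3.53 prior degrees of freedom), two-sided, with Benjamini-Hochberg adjustment over 11128 genes and a threshold of 0.05. The fit was tried on simulated data with independent noise on each array and changes planted only in the RORγt-deficient group. That trial did not cover the pattern by replicate number of the SRC-3 arrays. Depth does not apply to arrays, and their number limits precision.

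The members, lists and tests were chosen with earlier results of these data known. Full values are given for members past the threshold, the 5 of smallest p per comparison and 19 set by name, and for the rest by range. Alternatives were other scalings, filters, fits and the leaving out of arrays.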

Additional observations from a re-analysis of the deposited data

Results flagged for a closer look

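For 3 members the 2 comparisons differed from each other by an interaction test in limma. Lta was -0.66 without RORγt and 0.45 without SRC-3, a difference of -1.11 (limma adjusted p = 0.00987), and its deficient arrays lay below the wild type in the first and above it in the second. Tnfrsf11b was -1.04 and 0.07, a difference of -1.11 (limma adjusted p = 0.0392). Tnfrsf14 was 0.91 and 0.27, a difference of 0.64 (limma adjusted p = 0.0384). As given above, all 3 rested on single arrays. The wild-type means of the SRC-3 and RORγt experiments were 10.31 and 11.80 for Lta. They were 8.82 and 10.01 for Tnfrsf11b, and 10.25 and 10.42 for Tnfrsf14. The experiments share no samples. The sex markers moved with genotype in the RORγt experiment and with 1 deficient array in the SRC-3 experiment. What part sex or the wild-type levels had in the 3 differences between comparisons was not tested.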

How the results depend on the processing

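Over 18 alternatives, members past the threshold without SRC-3 stayed at 0, with 2 exceptions: 1 at an adjusted p of 0.10 (Lta, beside 1.16% of all genes) and 2 with the replicate block (Lta at 0.0233 and Tnfsf10 at 0.00671, beside 2.70%). Without RORγt, where 9 passed, beside 19.4% of all genes, the counts were 18 with the 4 arrays alone (30.5%), 19 with array weights (33.1%), 17 with the replicate block (30.7%) and 14 at an adjusted p of 0.10 (28.8%), and between 4 and 14 leaving out 1 array, with 14 without either SRC-3 wild-type array (22.8%). It was 4 without RORγt-deficient replicate 1 (4.37%) or wild-type replicate 1 (5.63%) and 5 without wild-type replicate 2 (5.01%). For the difference of the comparisons, 3 (1.67%) became 8 with the replicate block (8.49%) and between 0 and 2 leaving out 1 array (0.135% to 2.37%). The cause was not tested. The block is a hint only, since no label pairs the arrays: replicate differences of the 2 genotypes correlated across 11128 genes at r = 0.536 in the SRC-3 experiment and 0.00174 in the RORγt experiment. Of 820 single-gene values 726 kept direction and side of the threshold and 25 turned sign, none of them in a called result. For Tnf without SRC-3 the value was -0.01 after quantile normalization and 0 after a shift to 1 median, and Tnfsf9 without RORγt was 0.01 after that shift. Leaving out 1 array, the SRC-3 values that turned sign ranged from -0.03 to 0.14 (Cd27), -0.40 to 0.24 (Cd40lg), -0.30 to 0.32 (Tnf), -0.13 to 0.27 (Tnfrsf11b), -0.38 to 0.02 (Tnfrsf8), -0.43 to 0.17 (Tnfrsf9), -0.03 to 0.60 (Tnfsf11), -0.08 to 0.29 (Tnfsf14), -0.12 to 0.21 (Tnfsf8) and -0.03 to 0.40 (Fasl). The RORγt values did so for Tnfrsf4 (-0.01 to 0.10), Tnfsf9 (-0.22 to 0.19) and Fasl (-0.14 to 0.05). Probe sets near background limit the members below the filter.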

Other observations

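In the SRC-3 experiment, 13 of the 30 tested members had both arrays numbered 1 above both arrays numbered 2, whatever the genotype, beside 17.8% of all genes. They were Cd27, Cd40lg, Tnf, Tnfrsf11b, Tnfrsf12a, Tnfrsf22, Tnfrsf26, Tnfrsf9, Tnfsf11, Tnfsf14, Tnfsf4, Tnfsf8 and Tnfsf9. In 4 members, Cd40, Tnfrsf10b, Tnfrsf13c and Tnfrsf8, both arrays numbered 1 were lower, beside 29.8% of all genes. Either way, 17 of the 30 separated by number, beside 47.6% of all genes. In the RORγt experiment 1 member, Tnfrsf23, separated by number, with both arrays numbered 1 lower, beside 13.6% of all genes either way (7.37% lower). The labels do not say what the numbers share.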
